A study of Drosophila melanogaster with 20 samples.

Results

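The response of the larval Drosophila melanogaster wing to an activated form of Thickveins (Tkv) was measured by comparing 5 arrays of Tkv wings with 5 arrays of control wings, 10 of the 20 arrays of the study. The arrays were chosen by their titles. Tkv wings came from wandering larvae of the last instar that carried an activated Tkv transgene under UAS control. Control wings came from larvae of the same stage of the matched strain without the UAS transgene. All animals grew at 18 °C and spent the last 10 h before dissection at 28 °C, which permits Gal4-driven expression, so the controls had the same heat step. The sources used here name neither the Gal4 driver, nor the sex of the animals, nor the change that activates the receptor. Each sample was total RNA of 10 dissected wings, hybridised with a single dye, Cy3, to a NimbleGen array that read 15473 transcripts. The study's other arrays hold Tkv and control wings 24 h after pupa formation, 5 each. They enter the normalization, the dim and bright classes and the shared estimate of spread, and their own Tkv and control values are set beside the larval ones. In tissue of this kind, fewer cells of a type and less RNA per cell cannot be told apart, and any other difference between the strains would enter the comparison too.

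Tkv is a type I receptor for Decapentaplegic, the fly's best known BMP ligand. When ligand brings it together with the type II receptor Punt, Tkv phosphorylates the transcription factor Mad, which enters the nucleus with Medea, activates some genes directly and, together with Schnurri, silences others, among them the repressor brinker. In the larval wing disc this pathway patterns the anterior-posterior axis and supports growth, and in the pupal wing it promotes vein formation. An activated receptor signals without ligand, also in cells far from its source.

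The array reports each transcript under a FlyBase transcript ID with no gene name, and the RefSeq gene table of the Release 6 assembly paired only 44 of the 15473 IDs with any gene, 17 of them with a single symbol. The tkv transcript was not among them, so the transgene could not serve as a check of the labels. Members of the BMP pathway and its known targets, and markers of wing blade, notum, trachea, muscle, blood cells, neurons and fat body, could not be read either, so the labelled tissue was not checked against markers. The results below are therefore given by transcript ID, and the 17 transcripts with a symbol are described on their own.

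Levels are log2 of the deposited intensity after quantile normalization, and run from 3.77 to 15.84. They have a dim mode at 5.02 and a bright mode at 12.62, parted at 8.68. Of all transcripts, 7847 were bright on all 10 larval arrays and 6682 were dim on all 10. The median SD between replicates was 0.262 in Tkv wings and 0.230 in control wings. Replicate 1 of the Tkv wings stood apart from its group. Its values differed from the mean of the other 4 Tkv arrays by a median of 0.308, against 0.183 to 0.198 for the other Tkv arrays and 0.166 to 0.212 for the control arrays. Results are given with and without it below.

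In larval wings, Tkv expression went with a limited number of differences, some of them very large. By the limma test Tkv wings had 113 transcripts above and 103 below their level in control wings, at a Benjamini-Hochberg adjusted p under 0.05. These were 0.73% and 0.666% of all transcripts tested, together 1.4%. Before adjustment 1508 transcripts had a limma p under 0.05. Among the higher transcripts the median log2 difference was 0.93 (a 1.90-fold difference), with the middle 50% between 0.70 and 1.30. Among the lower transcripts it was -1.10 (2.15-fold), with the middle 50% between -1.70 and -0.78. Over all transcripts the median size of the difference, whichever its sign, was 0.137. Without Tkv replicate 1 the test called 93 transcripts higher and 95 lower. Of these 188, 158 were among the 216 called with all arrays.

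The rises and the falls differed in shape. Among the rises 6 transcripts were at least 16-fold higher, of which the smallest reached 4.23 on the log2 scale, and the next largest rise was 2.69. The falls had no such gap. The falls numbered 62 of at least 2-fold, 20 of at least 4-fold, 6 of at least 8-fold and 2 of at least 16-fold, against 48, 12, 6 and 6 for the rises. In brightness, 9 of the higher transcripts were bright on all 5 Tkv arrays and dim on all 5 control arrays, and 12 of the lower ones were dim on all Tkv arrays and bright on all control arrays. A further 56 higher and 29 lower transcripts were bright on all 10 arrays, and 27 higher and 37 lower ones were dim on all 10. Over all transcripts, called or not, 12 were bright on all Tkv and dim on all control arrays, and 14 the reverse. The called share was 1.08% of the transcripts bright on all 10 arrays and 0.958% of those dim on all 10.

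**Figure D1:**
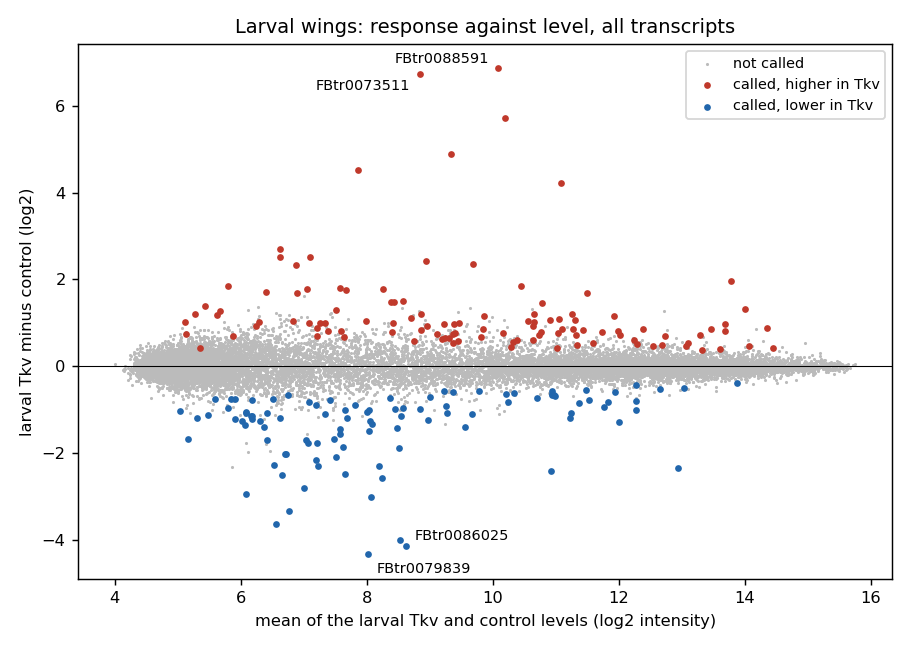
Difference between larval Tkv and control wings (log2, y axis) against the mean of the Tkv and control levels (log2 intensity, x axis) for 15473 transcripts, with the 113 called higher in red and the 103 called lower in blue. The 6 rises of at least 16-fold stand clear of the rest of the called transcripts, and the 2 largest falls lie below -4.

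Calls were most frequent at intermediate levels. Split into 4 equal classes by the mean over all 20 arrays, the dimmest class held 8 higher and 9 lower transcripts (0.439% of that class) and the next held 43 and 64 (2.77%). The class above held 44 higher and 24 lower transcripts (1.76%) and the brightest 18 and 6 (0.620%). A transcript that is bright in one group and dim in the other lies at an intermediate mean by construction. The standard error of the difference had a median of 0.229, 0.253, 0.151 and 0.114 from the dimmest to the brightest class.

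The largest rise was that of FBtr0088591. Its level was 13.19, 13.90, 13.46, 13.58 and 13.46 on Tkv arrays 1 to 5, against 6.74, 5.85, 6.01, 8.79 and 5.89 on control arrays 1 to 5. All Tkv arrays lay above the bright mode and close together, while the controls were dim apart from control replicate 4, which lay just above the border. The difference was 6.86 ± 0.40 on the log2 scale (SE, n = 5 each), or 116-fold (limma adjusted p = 8.62e-10). FBtr0073511 had 12.10, 12.97, 12.13, 11.85 and 11.98 in Tkv wings and 4.12, 5.47, 5.79, 7.18 and 4.77 in control wings. Here too control replicate 4 was the highest of the controls, and the groups were far from overlapping. The difference was 6.74 ± 0.40 (107-fold, limma adjusted p = 8.62e-10).

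The next rises followed the same form. FBtr0071697 had 13.36, 13.00, 12.90, 12.69 and 13.32 in Tkv wings and 7.29, 7.30, 6.52, 8.48 and 7.04 in control wings, a log2 difference of 5.73 ± 0.28 (53.0-fold, limma adjusted p = 4.12e-11). FBtr0088592, whose ID number follows that of FBtr0088591, had 11.69, 12.18, 11.63, 11.68 and 11.74 in Tkv wings and 7.24, 6.36, 6.69, 7.08 and 7.07 in control wings. Its difference was 4.90 ± 0.19 (29.8-fold, limma adjusted p = 1.51e-12), and its controls were all dim. Control replicate 4 was the control array nearest to the Tkv mean for 6 of the 12 rises of at least 4-fold. Over all 216 called transcripts it was nearest for 50 (23.1%), and control replicate 2 for 51 (23.6%). For the 20 falls of at least 4-fold, control replicate 4 was nearest for 3. The part of this array in the results was not tested. Without it FBtr0088591 and FBtr0073511 differed by 7.40 and 7.17, and 169 transcripts were called.

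The 2 largest falls had tight controls. FBtr0079839 was at 5.17, 5.37, 6.05, 6.0 and 6.66 in Tkv wings, against 10.09, 10.17, 10.29, 10.29 and 10.11 in control wings. It was bright on every control array and dim on every Tkv array, a difference of -4.34 ± 0.23 (20.2-fold lower, limma adjusted p = 2.38e-10). FBtr0086025 was at 6.21, 6.11, 6.46, 6.57 and 7.39 in Tkv wings, against 10.44, 10.73, 10.68, 10.76 and 10.80 in control wings, a difference of -4.14 ± 0.19 (17.6-fold lower, limma adjusted p = 2.57e-11). In both, Tkv replicate 5 was the Tkv array with the smallest fall. Tkv replicates 1 and 5 were each nearest to the control mean for 8 of the 20 falls of at least 4-fold. Over all 216 calls replicate 1 was nearest for 59 (27.3%) and replicate 3 for 53 (24.5%). Replicate 5 was nearest for 30 (13.9%), the fewest of any Tkv array.

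Other transcripts stayed bright in both groups, where intensities are well above the dim mode, and changed less. Of the 84 called transcripts that were bright on all 10 arrays with the same sign on all slides, 56 were higher and 28 lower. The largest rise among them was that of FBtr0081921, at 15.11, 14.40, 14.87, 14.49 and 14.92 in Tkv wings and 12.80, 12.68, 12.70, 12.98 and 12.83 in control wings, a difference of 1.96 ± 0.13 (3.88-fold, limma adjusted p = 5.12e-09). FBtr0087638 came next, at 12.84, 12.38, 11.87, 12.31 and 12.27 in Tkv wings and 11.22, 10.93, 10.60, 10.60 and 9.93 in control wings, a difference of 1.68 ± 0.20 (limma adjusted p = 5.52e-05). The groups did not overlap in either case.

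Among the bright transcripts that fell, FBtr0078413 was at 9.68, 9.54, 9.58, 9.90 and 9.88 in Tkv wings and at 12.64, 12.74, 12.12, 11.44 and 11.68 in control wings. The spread lay in the controls, with replicates 4 and 5 about 1 log2 unit below replicates 1 and 2. The difference was -2.41 ± 0.32 (5.30-fold lower, limma adjusted p = 0.000127). FBtr0082286 was among the brighter transcripts of the array, at 11.93, 11.75, 11.83, 11.56 and 11.79 in Tkv wings and 14.17, 14.24, 14.11, 14.14 and 13.92 in control wings. Its difference was -2.35 ± 0.19 (5.08-fold lower, limma adjusted p = 1.08e-07), with a small spread in both groups.

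**Figure D2:**
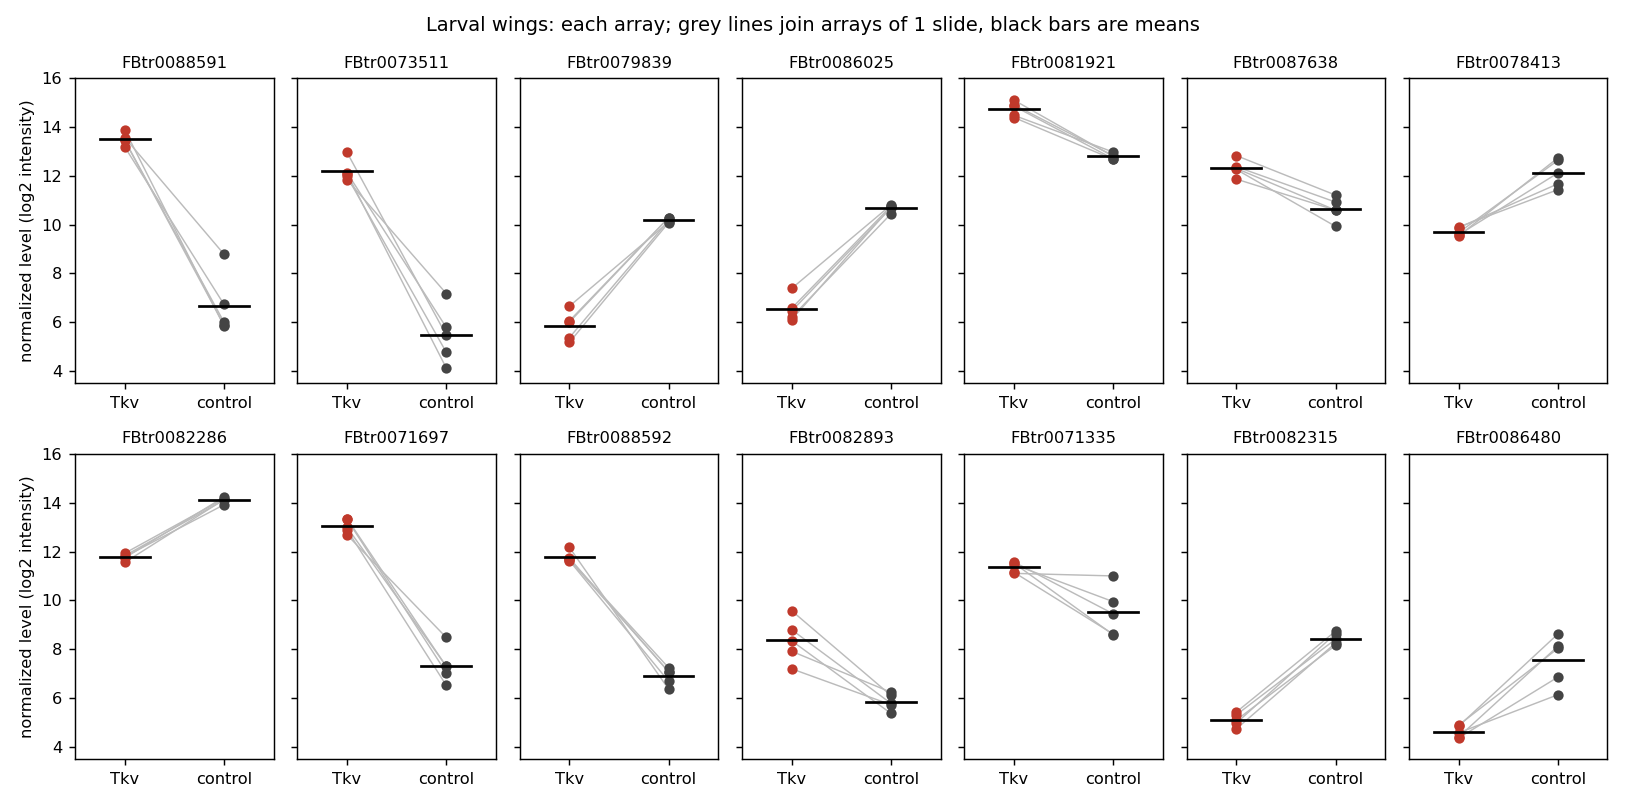
Normalized level (log2 intensity) of the 14 transcripts given by ID on each larval array, with Tkv arrays in red on the left of each panel and control arrays in grey on the right. Lines join arrays of the same slide and black bars are means of 5. The Tkv and control arrays do not overlap in any of the 14 panels, and FBtr0071335 comes closest, with 11.11 in Tkv replicate 2 and 11.00 in control replicate 2.

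Per the file names, arrays with the same replicate number shared a slide, so each slide held a Tkv and a control array of larval wings and can be read on its own. The sign was the same on all 5 slides for 211 of the 216 calls (111 higher and 100 lower), against 13.1% of all transcripts. On single slides 214 to 216 of the 216 were in the direction of the call. The median difference of the higher transcripts was 0.98, 0.85, 0.78, 0.86 and 1.03 on slides 1 to 5, and that of the lower ones was -1.17, -1.14, -0.93, -1.02 and -1.15. Each slide showed the response in both directions, although each also helped to make the calls. With slide as a block in the model limma called 255 transcripts, of which 198 were among the 216.

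The 5 Tkv arrays did not overlap the 5 control arrays for 187 of the 216 called transcripts (98 higher and 89 lower). Over all 15473 transcripts, 519 (3.35%) had groups that did not overlap, with the Tkv arrays above in 1.69% and below in 1.67%, so most such transcripts were not called. Only 1 transcript with a difference of at least 4-fold missed the threshold, and 62 with at least 2-fold did, of which 91.9% were dim on at least 1 larval array.

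**Figure D3:**
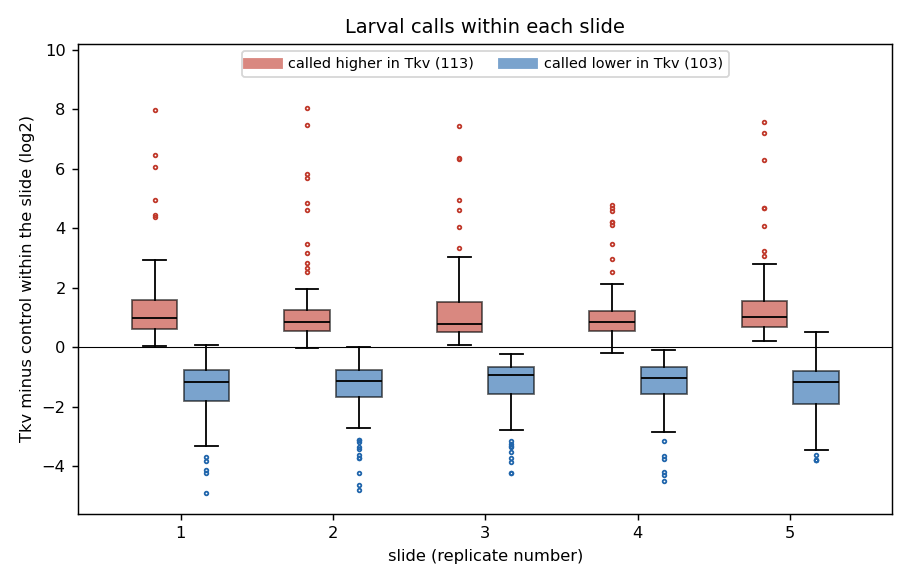
Difference between the larval Tkv and control array of each slide (log2, y axis) for the 113 transcripts called higher (red) and the 103 called lower (blue), with the slide on the x axis. Boxes show the middle 50% with the median, whiskers reach to 1.5 box lengths, and points lie beyond them. Medians lie between 0.78 and 1.03 for the higher and between -1.17 and -0.93 for the lower transcripts.

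Some called transcripts had neighbouring ID numbers. Of the 12668 pairs of transcripts with consecutive FlyBase numbers, 12 had both members called in larval wings, and in 11 of them both moved in the same direction. These 11 pairs hold 22 of the 216 transcripts, FBtr0088591 and FBtr0088592 among them. In 328 other pairs only 1 member was called. Consecutive IDs can be transcripts of 1 gene with shared sequence, which the files do not say, so 216 transcripts may stand for fewer genes.

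Pupal wings 24 h after pupa formation gave a separate measurement of the same transcripts. Their arrays share neither Tkv nor control samples with the larval comparison. However, both comparisons used 1 normalization and 1 estimate of spread, and per the file names the pupal arrays lay on the same slides as the larval ones. Of the 113 transcripts that rose in larval wings, 92 (81.4%) were also higher in pupal Tkv wings and 45 (39.8%) were called higher there. Of the 103 that fell, 93 (90.3%) were also lower and 54 (52.4%) were called lower. In pupal wings 1.62% of all transcripts were called higher and 1.54% lower, together 3.16%, and 55.6% of all transcripts had the same sign at both stages. The median pupal difference was 0.53 for the larval rises and -0.66 for the larval falls, against larval medians of 0.93 and -1.10. The transcripts were chosen on these same larval values, which enlarges the larval medians. The medians therefore cannot tell whether the response was weaker in pupal wings. Without larval Tkv replicate 1, 165 of 188 calls had the same sign in pupal wings.

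The share called again in pupal wings is given by size of the larval change. Of the 12 rises of at least 4-fold 8 were called higher in pupal wings (66.7%), as were 28 of the 65 under 2-fold (43.1%) and 9 of the 36 between (25%). Of the 20 falls of at least 4-fold 12 were called lower in pupal wings (60.0%), against 24 of the 42 between 2-fold and 4-fold (57.1%) and 18 of the 41 under 2-fold (43.9%). The sign was shared by 11 of the 12 largest rises and 17 of the 20 largest falls. The differences between these classes were not tested. FBtr0088591 and FBtr0073511 had pupal differences of 7.86 and 7.53, and those of FBtr0081921 and FBtr0082286 were 2.09 and -2.17. None of these 4 passed the interaction test (limma adjusted p = 0.753, 0.844, 0.930 and 0.940).

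The stage interaction, which tests the pupal minus the larval response, was passed by 32 of the 216 called transcripts (14.8%) and by 0.679% of all transcripts. Of the 32, 25 had the larger response in larval wings and 7 in pupal wings, and in 13 the pupal difference had the other sign. The 32 had been chosen for a call in larval wings. Of all 105 transcripts that passed the interaction, 78 had the larger response in pupal wings and 27 in larval wings. FBtr0071697 rose less in pupal wings (log2 3.09 ± 0.28), where its controls were brighter at 9.58 ± 0.49 (SD, n = 5) against 7.33 ± 0.72 in larval controls, an interaction of -2.64 ± 0.39 (limma adjusted p = 0.00103). FBtr0088592 rose more in pupal wings (log2 6.10 ± 0.19), with an interaction of 1.20 ± 0.27 (limma adjusted p = 0.0425). That interaction missed the threshold in 16 of 24 refits, among them the one with slide as a fixed block (limma adjusted p = 0.0727) and the one without larval Tkv replicate 1 (0.0719), with a highest p of 0.404. With slide as a random block it passed (limma adjusted p = 0.0299).

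For the 2 largest larval falls the pupal fall was smaller. For FBtr0079839 the pupal difference was -2.45 ± 0.23 and the interaction 1.88 ± 0.33 (limma adjusted p = 0.00626). For FBtr0086025 these were -2.94 ± 0.19 and 1.19 ± 0.27 (limma adjusted p = 0.0440). FBtr0079839 was dim in both pupal groups, at 4.85 ± 0.41 in Tkv and 7.31 ± 0.28 in control wings (SD, n = 5). Its larval controls were at 10.19 ± 0.10. Its pupal Tkv level lay near the dim mode, and how far this limits the pupal fall was not tested. FBtr0086025 was at 8.06 ± 0.27 in pupal Tkv wings and 11.00 ± 0.20 in pupal controls. The interaction of FBtr0086025 missed the threshold in 13 of 24 refits, with a highest limma adjusted p of 0.288, and that of FBtr0079839 in 3, without replicate number 2, 3 or 4 (0.0610, 0.0827 and 0.0654). The interactions of FBtr0071697 and FBtr0087638 passed in all 24. FBtr0087638 rose in larval wings but was at 13.47 ± 0.14 in pupal Tkv wings and 13.91 ± 0.28 in pupal controls (interaction -2.12 ± 0.29, limma adjusted p = 0.000413). The number of larval calls that passed the interaction was 33 without larval Tkv replicate 1. It fell to 21 without larval Tkv replicate 5 and to 20 without larval control replicate 3. Leaving out a whole slide gave 20, 17, 17 and 17 for replicate numbers 2 to 5.

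**Figure D4:**
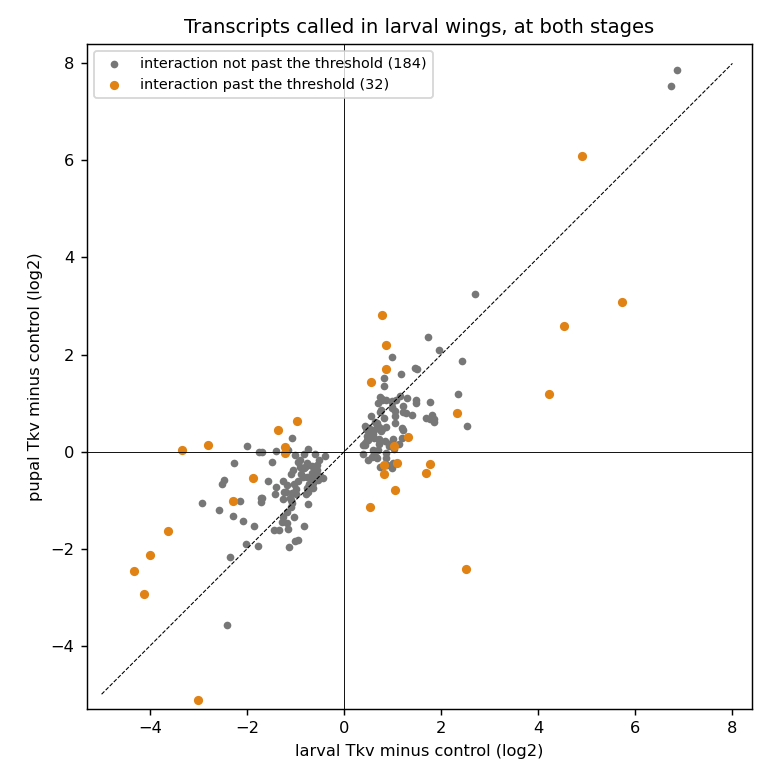
Tkv minus control (log2) in larval wings (x axis) and in pupal wings (y axis) for the 216 transcripts called in larval wings. Orange points are the 32 that passed the interaction test, grey points the other 184, and the dashed line marks equal differences. Of the points, 185 lie in the quadrants of equal sign.

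Of the 216 larval calls, 67 (37 higher and 30 lower) had an unadjusted p of 0.05 or more in pupal wings. Of the 30 lower ones, 22 were dim on all 10 pupal arrays, against 29 of the 73 lower ones with a smaller pupal p. Of the 37 higher ones 12 were dim on all pupal arrays, against 17 of 76. Of the 51 larval falls that were dim on all pupal arrays 22 were called in pupal wings, as were 7 of the 29 such rises. Over all 15473 transcripts, 6570 were dim on all pupal arrays, and 118 of those were called in pupal wings. The part of brightness in these counts was not tested. FBtr0082315 was at 5.42, 5.31, 4.73, 4.97 and 5.09 in larval Tkv wings and 8.74, 8.41, 8.25, 8.64 and 8.16 in larval controls, a difference of -3.34 ± 0.22 (10.1-fold lower, limma adjusted p = 7.51e-09). In pupal wings it was at the dim mode in both groups, with 4.89 ± 0.34 in Tkv and 4.86 ± 0.55 in control wings (interaction 3.36 ± 0.32, limma adjusted p = 4.86e-06).

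The other transcripts given from this set varied more between arrays. FBtr0086480 was at 4.89, 4.40, 4.36, 4.57 and 4.84 in Tkv wings and 8.03, 8.12, 6.85, 6.13 and 8.62 in control wings, a difference of -2.94 ± 0.53 (limma adjusted p = 0.00439). FBtr0082893 was at 7.20, 9.58, 8.80, 8.35 and 7.91 in Tkv wings and 5.72, 6.11, 5.78, 5.37 and 6.24 in control wings, a difference of 2.53 ± 0.33 (limma adjusted p = 0.000109). FBtr0071335 was at 11.53, 11.11, 11.47, 11.58 and 11.15 in Tkv wings and 8.59, 11.00, 9.95, 9.45 and 8.62 in control wings, a difference of 1.84 ± 0.33 (limma adjusted p = 0.00333). For FBtr0071335 the difference was only 0.11 on slide 2, and the call was lost without replicate 1 of all groups (limma adjusted p = 0.0581). FBtr0086480 lost its call without replicate 5 of all groups (limma adjusted p = 0.0528). In pupal wings FBtr0086480, FBtr0082893 and FBtr0071335 differed by -1.05 ± 0.53, 0.52 ± 0.33 and 0.61 ± 0.33, each with its larval sign. FBtr0082893 was dim in both pupal groups, at means of 5.54 in Tkv and 5.02 in control wings. The controls of FBtr0071335 had a mean of 11.47 in pupal wings, against 9.52 in larval wings. None of these 3 passed the interaction test with all arrays (limma adjusted p = 0.478, 0.0501 and 0.426 for FBtr0086480, FBtr0082893 and FBtr0071335). FBtr0082893 was at the threshold and passed it in 7 of 24 refits, with slide as a fixed block (limma adjusted p = 0.0304) and as a random block (0.0284) among them and a lowest p of 0.00753. FBtr0071335 passed in 2 of 24, without control replicate 2 (limma adjusted p = 0.0279) and without replicate 2 of all groups (0.0421), and FBtr0086480 in 0.

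By limma no call fell on the 17 transcripts that carry a gene symbol, and 1 of them had an unadjusted p under 0.05. With a background of 1.4% called, no call among 17 is no result about this group. Their differences lay between -0.32 and 0.44, with 3 higher and 14 lower in Tkv wings. Over all transcripts, called or not, 7346 were higher and 8127 lower. Whether the split among the 17 differs from this was not tested. The lowest unadjusted p was that of sle (slender lobes), at 12.58, 12.41, 12.62, 12.28 and 12.72 in Tkv wings and 12.80, 12.96, 12.61, 12.87 and 12.99 in control wings. Its difference was -0.32 ± 0.13 (limma adjusted p = 0.402), with that sign on 4 of 5 slides and overlapping groups.

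Among the 17 were genes of protein turnover and of chromatin. rdx (roadkill) encodes a ubiquitin ligase adaptor that limits Hedgehog signalling, and was at 14.71, 14.55, 14.46, 14.53 and 14.72 in Tkv wings and 14.90, 14.69, 14.63, 15.03 and 14.68 in control wings. The groups overlapped, and the 95% interval of the difference ran from -0.40 to 0.01. Uba1, the ubiquitin-activating enzyme, differed by -0.03 (95% interval -0.22 to 0.15). Of the chromatin genes, the histone deacetylase HDAC3 differed by -0.04 (-0.22 to 0.15), the remodeller kis by -0.16 (-0.51 to 0.19) and SuUR, which slows replication in heterochromatin, by -0.07 (-0.40 to 0.27). His4r, a replacement histone H4 gene, had the largest positive difference, 0.44 (-0.06 to 0.93), with 11.60, 11.03, 11.08, 11.25 and 11.03 in Tkv wings and 11.26, 10.91, 11.10, 10.12 and 10.42 in control wings. Its controls spread over more than 1 log2 unit and overlapped the Tkv arrays.

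The others included structural and metabolic genes. LanA encodes a laminin subunit found in basement membranes and was at 13.52, 12.93, 13.04, 12.83 and 13.28 in Tkv wings and 12.56, 13.46, 12.87, 13.23 and 13.14 in control wings, a difference of 0.07 (95% interval -0.44 to 0.58). alpha-Spec, of the spectrin membrane skeleton, differed by -0.14 (-0.39 to 0.12). mio and Wdr24, both subunits of a complex that promotes TORC1 signalling, differed by -0.03 (-0.29 to 0.24) and -0.01 (-0.33 to 0.30). The fatty acid transport gene Fatp1 differed by -0.09 (-0.35 to 0.17), the phosphate transporter gene NaPi-III by 0.03 (-0.45 to 0.51) and the kinase gene Dyrk3 by -0.14 (-0.46 to 0.19). The intervals of fend, CG16974 and CG31178 also included 0. CG31178 was the only one of the 17 that was not bright on all 10 larval arrays, with means of 4.65 in Tkv and 4.94 in control wings. Within the Tkv group, replicate 1 held the highest value for 10 of the 17 transcripts, and none of the 17 was called without it.

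**Figure D5:**
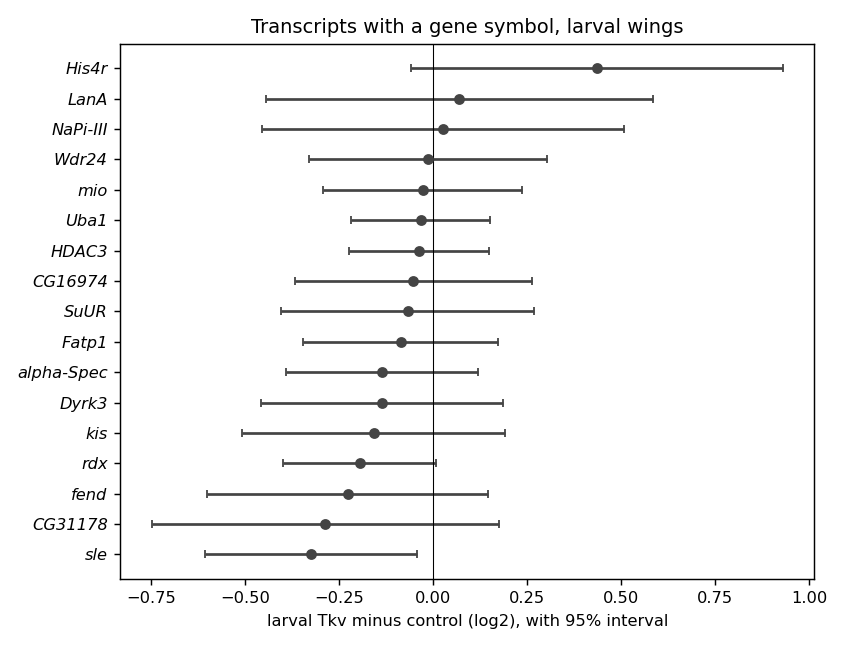
Difference between larval Tkv and control wings (log2, x axis) for the 17 transcripts with a single gene symbol (y axis), with 95% intervals from the limma fit (5 arrays each). Of the intervals 16 include 0, and that of sle runs from -0.61 to -0.04 before adjustment for the number of transcripts tested.

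The number of calls depended on the arrays and on the model used. With only the 10 larval arrays in the fit limma called 197 transcripts (96 higher and 101 lower), of which 154 were among the 216. Leaving out a single larval array gave 142 to 199 calls, the lowest without control replicate 3. Leaving out a whole slide gave 153, 132, 117, 166 and 110 calls for replicate numbers 1 to 5. With all arrays kept, adding array position to the slide block gave 124. Position was not balanced between the larval groups. Per the file names, on slides 1 to 5 it was 4, 2, 3, 4 and 2 for Tkv and 1, 4, 2, 3 and 1 for control arrays. In all, 80 of the 216 transcripts (33 higher and 47 lower) were called in each of 23 refits. Of the 110 calls of at least 2-fold 62 were among these, against 18 of the 106 smaller ones.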

How the data were processed

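Groups and replicate numbers came from the sample titles. The intensity values deposited by the authors are linear, from 12.2 to 62182, with 3 to 5 probe pairs per transcript per the file headers; RMA is named in the submitters' processing notes, without version or settings. The log2 values of the deposited series table equal the log2 of these intensities to within 5.00e-09. Because the deposited medians differed by up to 0.403 between arrays, log2 intensities were quantile-normalized over all 20 arrays, which removes any shift common to all transcripts.

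Testing was done in R 4.3.3 with limma 3.58.1 (lmFit on 4 group means with 16 residual degrees of freedom, contrasts.fit, eBayes), two-sided, with Benjamini-Hochberg adjustment over 15473 transcripts and a threshold of 0.05. The script was tested on simulated arrays with known changes. It recovered 43.3% of 1.5-fold, 79.1% of 2-fold and 98.5% of 4-fold changes there, and 11 of its 158 calls were false. Nothing used here says how animals of different samples were related beyond independent isolation, so the p-values cover only differences among these samples, which may be technical. The dim and bright border lies where the density of all values (bandwidth 0.25) is lowest between its modes. Of the largest changes with the same sign on all slides, 2 rises and 2 falls were named among all calls, bright calls, calls passing the interaction, and calls with a pupal p of 0.05 or more. Of 8 gene lists and 7 marker lists, LanA was the only member with a named transcript, so none was tested. The groups, lists, classes and tests were chosen with earlier results of these data known. Neighbouring IDs and nearest arrays were examined after the values were seen. Software also included jsonlite 2.0.0, Python 3.11.15 and matplotlib 3.10.9.

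Alternatives were slide as a block (fixed or random), slide plus array position, other normalizations, the series table, a filter on dim transcripts, larval arrays alone, eBayes with trend and robust fitting, other thresholds, and leaving out arrays or slides.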

Additional observations from a re-analysis of the deposited data

Results flagged for a closer look

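A single array stood well apart from the remaining 4 in 8 of the 66 groups of 5 larval values examined. By chance this would be seen in about 1 of 20 groups of independent, normally distributed values. The 66 groups came from the same 10 arrays and are not independent, so that rate is no measure for the 8. The median difference of Tkv replicate 1 from the other Tkv arrays, 0.308, was among the values that stood apart. In Tkv wings the others were 12.97 for FBtr0073511 and 12.18 for FBtr0088592, both in replicate 2, 12.44 for alpha-Spec in replicate 3, 10.02 for mio in replicate 1 and 5.01 for CG31178 in replicate 2. In control wings they were 12.99 for kis in replicate 3 and 13.05 for Dyrk3 in replicate 2.

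The response differed between stages by the limma interaction test for 32 of the 216 larval calls. Among the transcripts given by ID the pupal minus larval response was 3.36 for FBtr0082315, 1.88 for FBtr0079839, 1.20 for FBtr0088592, 1.19 for FBtr0086025, -2.12 for FBtr0087638 and -2.64 for FBtr0071697. The tests of FBtr0088592, FBtr0086025 and FBtr0079839 missed the threshold in 16, 13 and 3 of 24 refits.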

How the results depend on the processing

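The 216 larval calls became 124 with array position and slide as a replicate block, 105 at an adjusted p under 0.01 and 110 with a minimum of 2-fold. With slide alone as a fixed or random replicate block they were 255 and 258; the larval same-numbered arrays share a slide but did not all deviate together (correlations of 0.161, -0.0495, 0.236, -0.00505 and 0.139 for numbers 1 to 5). Under the other normalizations, the series table, the dim filter, larval arrays alone, trend and robust fitting and a threshold of 0.10, the count was between 193 and 302. Leaving out arrays or slides gave 110 to 199 calls, 99 to 168 calls with the same sign in pupal wings (185 with all arrays) and 17 to 33 calls passing the interaction (32). Transcripts with groups that did not overlap, 519 with all arrays, numbered 628 to 902 with 1 array fewer, which relaxes that condition by construction. Of the 14 transcripts given by ID, none changed direction. The calls of FBtr0071335 (adjusted p = 0.0509 with position and slide, 0.0581 without replicate 1) and FBtr0086480 (0.0528 without replicate 5) were lost in 2 and 1 of 25 refits by limma, and the cause was not tested. None of the 17 transcripts with a symbol passed in any refit. No detection calls were used, and how far signal over background limits the dim transcripts was not tested.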
